A study of Rattus norvegicus with 12 samples.

Results

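The genes described here are the 100 rat genes whose RNA level followed most closely that of ENSRNOG00000015550, called the anchor below, across 12 libraries of newborn preoptic area. They were chosen from 29516 gene identifiers in 3 steps. The 16310 genes with at least 0.5 RPKM (a gene's reads divided by its model length in kilobases and by the library's read total) in at least 3 libraries were kept. The 234 genes that were higher in every zebularine than in every vehicle library of both sexes were set aside, and the anchor is not one of them. Of the remaining 16075 genes, the 100 with the highest Pearson r with the anchor, on the log2(RPKM + 0.5) scale over 12 libraries, are the members. The rule used every value of every member, so their levels, folds and correlations below are descriptions and carry no test.

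The preoptic area is a forebrain region at the front of the hypothalamus that takes part in reproductive behaviour and becomes different in males and females around birth, under gonadal steroids. DNA methyltransferases add methyl groups to cytosine in DNA, a mark known for silencing genes when it lies in promoters. Zebularine is a cytidine analogue that enters nucleic acids and traps these enzymes. A bulk library pools the RNA of all cells in the piece of tissue, so more cells of a type and more RNA per cell cannot be told apart in any value below.

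The libraries form 4 groups of 3: females given vehicle, females given zebularine, males given vehicle and males given zebularine. Every animal was dosed on the day of birth (postnatal day 0) and again on day 1, and the brains were collected on day 2. The vehicle held 0.1% of a solvent spelled DNMSO in the labels, in saline. The sources used here do not give strain, dose, route or whether a library came from 1 animal or a pool, so the spread between libraries of a group may be technical. Depth ran from 15851731 to 30475130 reads assigned to genes per library.

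The files do not pair identifiers with gene symbols, and 0 of the 29516 identifiers matched the RefSeq gene table for assembly GRCr8. Functions, positions and sequences of the members are therefore not given, and the labelled tissue and the markers of other cell types were not analysed here. Apart from the anchor and the member closest to it, members are named by their rank of r, from 1 for the closest to 100 for the last one kept. Members singled out by rank were chosen after their values were seen.

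The anchor stood at 156, 177 and 543 RPKM in the zebularine females (replicates 1, 2 and 3) and at 1.86, 4.86 and 14.2 RPKM in the vehicle females. In males it stood at 2.40, 1.38 and 0.749 RPKM under vehicle and at 6.10, 1.75 and 1.32 RPKM under zebularine. The treated females thus lay above all 9 other libraries without overlap, vehicle female 3 came next, and the male groups overlapped. The group means were 292 ± 218 RPKM in zebularine females, 6.97 ± 6.42 RPKM in vehicle females, 3.05 ± 2.64 RPKM in zebularine males and 1.51 ± 0.836 RPKM in vehicle males (SD, n = 3). Zebularine minus vehicle was 5.44 ± 0.71 (SE) in females and 0.66 ± 0.71 (SE) in males on the log2(RPKM + 0.5) scale. The SE is that of the limma fit, with a spread shared by all 4 groups, so it does not measure the spread of each sex alone. The anchor's gene model is 759 bases long, and it held between 17 and 8812 reads per library. Over the 12 libraries its level spanned 8.77 on the log2 scale.

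ENSRNOG00000006010 followed the anchor most closely, with an r of 0.97. It stood at 5.18, 7.24 and 8.57 RPKM in the zebularine females and at 1.09, 1.21 and 2.00 RPKM in the vehicle females. In males it stood at 1.60, 1.33 and 1.08 RPKM under vehicle and at 1.45, 1.13 and 1.27 RPKM under zebularine. As with the anchor, treated females did not overlap any other library, and vehicle female 3 was the highest of the rest. Zebularine minus vehicle was 1.96 ± 0.21 (SE) in females and -0.04 ± 0.21 (SE) in males on the log2(RPKM + 0.5) scale, with the SE from the same limma fit. Zebularine female 3 lay 1.71 above the mean of the other treated females on the log2 scale for the anchor, and 0.45 above it for ENSRNOG00000006010.

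**Figure D1:**
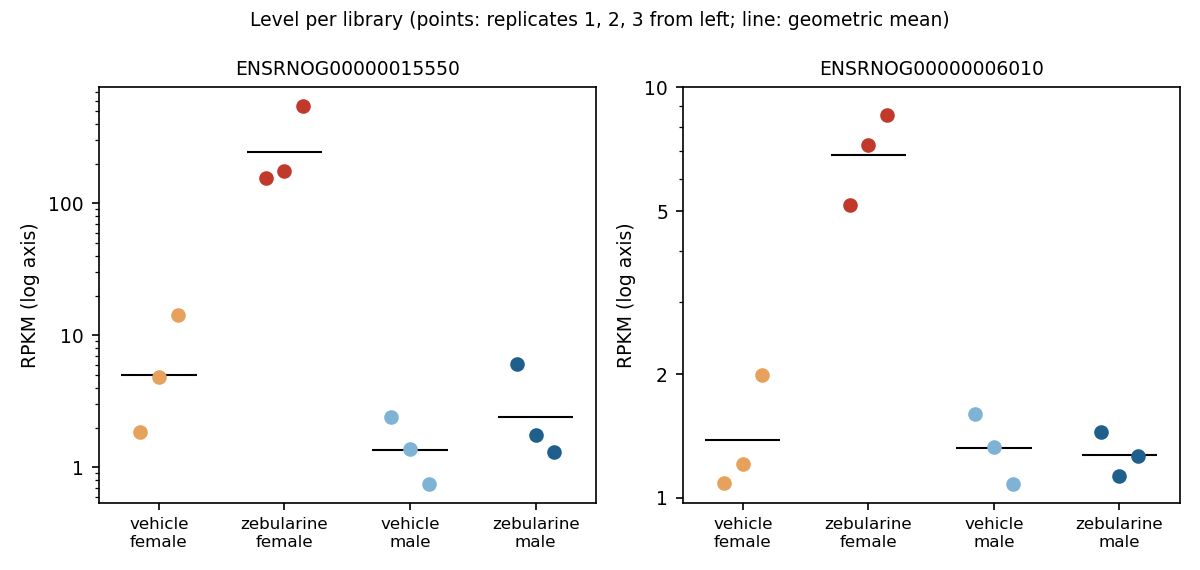
RPKM on a log axis for the anchor (left) and the member with the highest r (right) in each of 12 libraries, by group; points are replicates 1, 2 and 3 from left to right and the line is the geometric mean. The zebularine females lie from 156 to 543 RPKM (left) and from 5.18 to 8.57 RPKM (right), above every other library.

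The members' r with the anchor ran from 0.97 down to 0.82, with a median of 0.86, and 26 members had an r of at least 0.9. The last gene kept had an r of 0.8229 and stood at 6.19, 7.72 and 29.3 RPKM in the zebularine females, against 4.51, 3.75 and 5.62 RPKM in the vehicle females. The first gene left out had an r of 0.8219 and stood at 6.91, 7.12 and 11.2 RPKM against 5.94, 5.15 and 5.86 RPKM in the same groups. These neighbours of the limit thus had nearly the same r, while the gene inside had the larger range. The median r over all genes ranked was 0.011, and 4 genes had an r as far below 0 as the last member's was above it. Of the 234 genes set aside, 9 had an r at least as high as that of the last member, the highest 0.93.

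The anchor spanned a wider range than any member. Per doubling of the anchor, the median member was 0.13 higher on the log2 scale, and single members were from 0.024 to 0.56 higher. The members' range over the 12 libraries had a median of 1.71 on the log2 scale, against 0.48 for all 16310 genes, and ran from 0.28 to 5.83.

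In females, all 100 members were higher under zebularine on average, which the choice by r with the anchor largely fixes. The log2 difference had a median of 0.80 and ran from 0.12 to 2.98, against a median of 0.0050 over all tested genes. For 41 members the zebularine female mean was at least 2-fold the vehicle female mean on the log2(RPKM + 0.5) scale. The same held for 0.828% of all tested genes. Folds here and below are taken on that scale, where those of genes of low level come out smaller than in RPKM. Every zebularine female lay above every vehicle female for 72 members, against 5.87% of all tested genes, and above each of the 9 other libraries for 67, against 1.43%. In the limma fit over all genes 7 genes were called higher in zebularine females at an adjusted p under 0.05, which is 0.0429% of those tested. Besides the anchor, 1 of them was a member, ENSRNOG00000006010. No member was called with the replicate block, or without vehicle female 1 or 2, zebularine female 2, or any 1 of the zebularine males. The rule used these same libraries, so nothing is read from these counts.

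Zebularine female 3 carried much of the size. It was the highest of all 12 libraries for 98 members, as it was for 17.4% of all tested genes, and zebularine female 2 for the other 2. Zebularine female 2 was the second highest for 70 members, zebularine female 1 for 24 and vehicle female 3 for 4. Over the members, the log2 excess of zebularine female 3 over the mean of zebularine females 1 and 2 had a median of 0.90 and ran from 0.012 to 3.67. Over all tested genes its median was 0.023. The depth of that library, 21372498 reads, lay within the range of the others, and causes of its excess were not tested.

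Without zebularine female 3 the differences were smaller. The median log2 difference over the members in females was 0.44, and 21 members were at least 2-fold higher, in place of 41. In the same comparison 0.497% of all tested genes were at least 2-fold higher. The mean of zebularine females 1 and 2 lay above the vehicle female mean for all 100 members, by up to 2.26 on the log2 scale. It lay above for 8254 of the 16310 tested genes. The rule used zebularine females 1 and 2 as well, so it favours these counts.

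**Figure D2:**
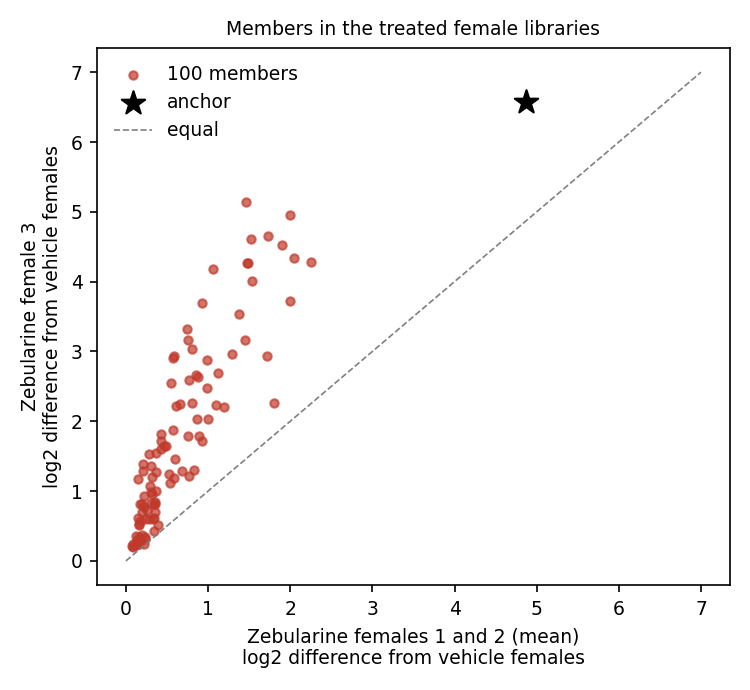
Each point is 1 member: its mean log2 difference from the vehicle female mean in zebularine females 1 and 2 (horizontal) and in zebularine female 3 (vertical), on the log2(RPKM + 0.5) scale; the star is the anchor and the dashed line marks equal values. All 100 members lie above 0 on both axes and above the dashed line by between 0.012 and 3.67.

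The size of the zebularine female 3 value set the members apart from each other. On the log2(RPKM + 0.5) scale that value was at least 8-fold the vehicle female mean for 18 members and 4-fold to 8-fold for 19. It was 2-fold to 4-fold for 26 and under 2-fold for 37. At least 8-fold was reached by 0.208% of all tested genes, the anchor included. The 18 steepest members had a median vehicle level of 0.691 RPKM, and the 37 flattest one of 1.84 RPKM. A gene low under vehicle passed the filter on low values only if it was higher elsewhere, so the rule partly fixes this contrast. In the zebularine females 1 and 2 the 18 steepest stood a median of 1.48 above vehicle females on the log2 scale, against 0.22 for the 37 flattest. The classes were cut against the same vehicle female mean, and the anchor was high in these libraries too. The rule thus largely fixes this contrast as well. Zebularine female 1 was the lowest of the treated females, zebularine female 2 lay between and zebularine female 3 was the highest for 72 members. This order held for 20.2% of all tested genes. Among the members it held for 17 of the 18 steepest and 19 of the 37 flattest. The anchor had the same order, so the rule favours these member counts.

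The steepest was the member ranked 29, which stood at 1.18, 2.54 and 28.4 RPKM in the zebularine females and at 0.114, 0.0889 and 1.03 RPKM in the vehicle females. Its 6 male libraries lay between 0.0403 and 0.166 RPKM, on 5 to 21 reads each. It reached 0.5 RPKM only in the zebularine females and vehicle female 3, so it passed the filter through the group where it was high. Vehicle female 3 came close to zebularine female 1 in this gene, and both stood far from the low vehicle females. The member ranked 10 stood at 5.54, 5.85 and 52.2 RPKM in the zebularine females and at 1.42, 0.729 and 3.79 RPKM in the vehicle females. Its male libraries lay between 0.567 and 1.63 RPKM, around the level of vehicle females 1 and 2.

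The most abundant member, ranked 68, was among the flattest. It stood at 192, 202 and 230 RPKM in the zebularine females and at 177, 188 and 176 RPKM in the vehicle females. The male libraries lay between 171 and 185 RPKM. Its treated females lay above all other libraries, yet by a log2 difference of 0.20 in the group means. The flattest member, ranked 89, stood at 34.3, 33.4 and 36.6 RPKM in the zebularine females and at 30.8, 32.3 and 32.5 RPKM in the vehicle females. A high r thus stood beside a small change in such members.

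**Figure D3:**
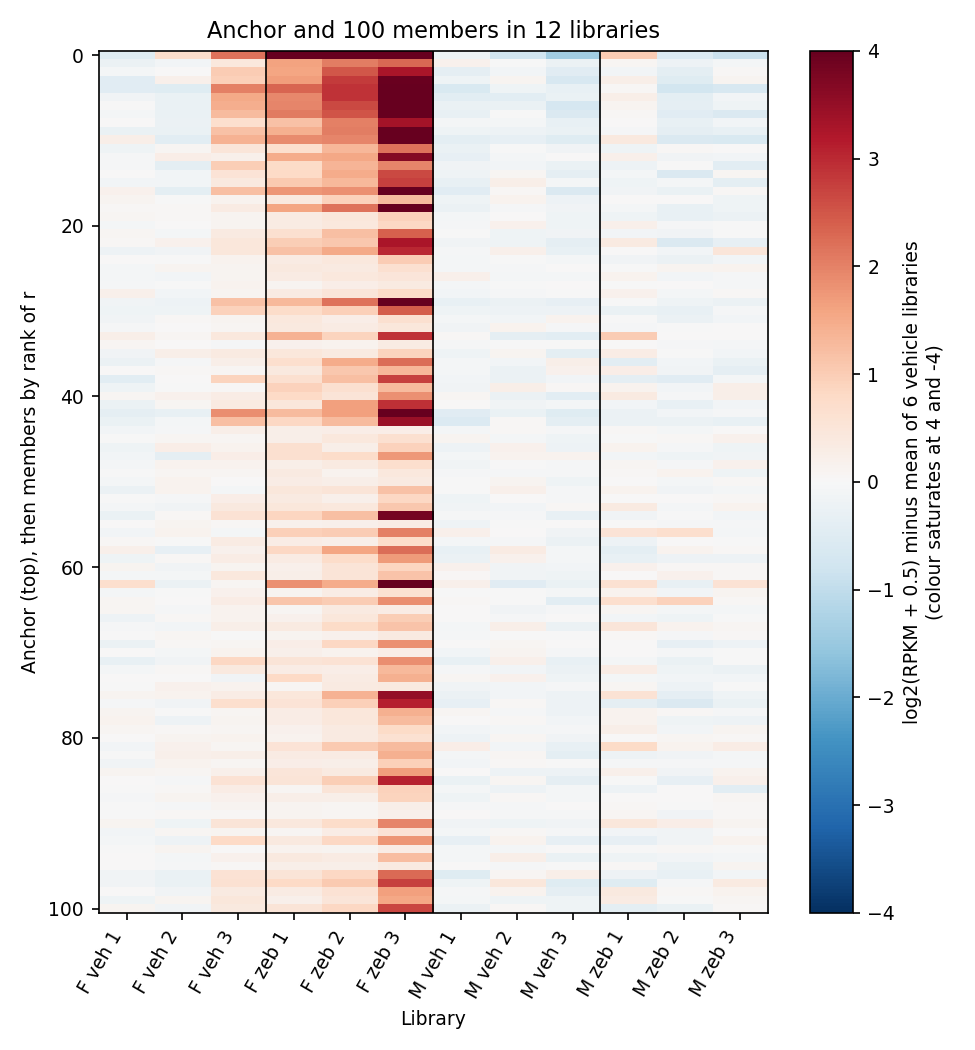
Anchor (top row) and 100 members in order of r (rows) in 12 libraries (columns; F female, M male, veh vehicle, zeb zebularine); colour is log2(RPKM + 0.5) minus the mean of the 6 vehicle libraries, saturating at 4 and -4. Red is deepest in zebularine female 3, where the members' median is 1.42, and a paler red marks vehicle female 3, at 0.24.

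Vehicle female 3, from a group without zebularine, shared the pattern. The rule favours this, as the anchor was highest there among the 9 libraries outside the zebularine females. Vehicle female 3 was the highest vehicle female for 79 members, as it was for 38.0% of all tested genes. It was the highest of the 9 libraries outside the zebularine females for 58 members, against 12.3% of all tested genes. Its log2 excess over the mean of vehicle females 1 and 2 had a median of 0.25, against 0.027 over all tested genes. The excess was at least 2-fold for 16 members, against 1.14% of all tested genes. For 24 members vehicle female 3 lay above zebularine female 1, as it did for 52.0% of all tested genes.

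Vehicle female 3 was furthest from its group in the member ranked 4. That gene stood at 0.407, 0.400 and 4.53 RPKM in the vehicle females and at 5.79, 8.82 and 30.6 RPKM in the zebularine females. The male libraries lay between 0.249 and 0.793 RPKM, close to vehicle females 1 and 2. The member ranked 42 stood at 2.62, 2.78 and 14.1 RPKM in the vehicle females and at 9.11, 12.1 and 95.3 RPKM in the zebularine females, so that vehicle female 3 lay above 2 of the treated females. With vehicle female 3 left out, 96 members had every zebularine female above every vehicle female, in place of 72. The share of all tested genes in that smaller comparison was 13%, in place of 5.87%.

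Among the 18 steepest members vehicle female 3 was the highest of the 9 libraries outside the zebularine females for 15, and among the 37 flattest for 16. Its excess over vehicle females 1 and 2 had a median of 1.34 on the log2 scale in the steepest and 0.11 in the flattest. By these medians, members with a larger zebularine female 3 value also had a larger excess in vehicle female 3. All members were chosen to follow the anchor, which was high in both libraries, so the rule largely fixes this contrast.

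In males the members' differences between treated and vehicle libraries were small. Zebularine minus vehicle had a median of 0.033 on the log2 scale, from -0.27 to 0.68, and 63 members were higher under zebularine on average, against 50.2% of all tested genes. Every zebularine male lay above every vehicle male for 3 members, where 8.36% of all tested genes did, and below for 2, where 5.97% did. Those 2 members were also higher in every zebularine female than in every vehicle female, a pair of directions found in 0.19% of all tested genes. Genes that were higher without overlap in both sexes had been set aside by the rule, which lowers the first of these counts. Limma called 0 genes in males over all genes, 0% of those tested, and at an unadjusted p under 0.05 it counted 676 that were higher and 560 that were lower, together 7.58% of those tested, and 1 of them was a member. For the male minus female difference of the zebularine effect limma also called 0 genes, 0% of those tested, and at an unadjusted p under 0.05 it counted 267 with a difference above 0 and 394 below 0. Of the 394, which are 2.42% of those tested, 40 were members, and the rule used these values too.

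The largest male difference was that of the member ranked 64. It stood at 0.346, 0.315 and 0.106 RPKM in the vehicle males and at 0.809, 1.05 and 0.340 RPKM in the zebularine males, where the lowest treated library fell among the vehicle libraries. The lowest male difference was that of the member ranked 36, at 4.14, 3.96 and 5.20 RPKM under vehicle and 3.15, 4.05 and 3.54 RPKM under zebularine. In females the same gene stood at 3.64, 4.24 and 5.17 RPKM under vehicle and at 7.25, 13.2 and 22.2 RPKM under zebularine. The male groups overlapped in both genes.

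The highest male library of the anchor was zebularine male 1, at 6.10 RPKM. That library was the highest of the 6 male libraries for 37 members, against 21.5% of all tested genes, and its log2 excess over the mean of the other males had a median of 0.084. It was also the deepest library, and an effect of depth was not tested. The members' range over the 6 male libraries had a median of 0.37 on the log2 scale, and that of all tested genes was also 0.37.

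Between the vehicle groups, vehicle females had the higher mean for 92 members, against 52.3% of all tested genes. The male minus female difference under vehicle had a median of -0.14 on the log2 scale, from -0.81 to 0.13, and the female mean includes vehicle female 3. Under zebularine males were lower for all 100 members, by a median log2 difference of -0.79, against -0.016 over all tested genes. Of the 16310 tested genes, 7498 were higher in zebularine males. The choice by r with the anchor, which was highest in zebularine females, largely fixes the members' direction.

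As a share of the library, the 100 members held 0.137%, 0.161% and 0.449% of the reads in zebularine females 1, 2 and 3. The 95% Wilson intervals were 0.135% to 0.139%, 0.159% to 0.162% and 0.446% to 0.451%, and they cover counting error only. The shares were 0.0934%, 0.0969% and 0.123% in vehicle females 1, 2 and 3, with an interval of 0.121% to 0.124% for the last. The 6 male libraries held between 0.0888% and 0.0982%. The sum thus set the treated females and vehicle female 3 apart from the other 8 libraries. The abundant member ranked 68 held 8742 of the 23768 member reads in vehicle female 1 and 9550 of the 95879 in zebularine female 3, so the sum weighs it heavily.

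**Figure D4:**
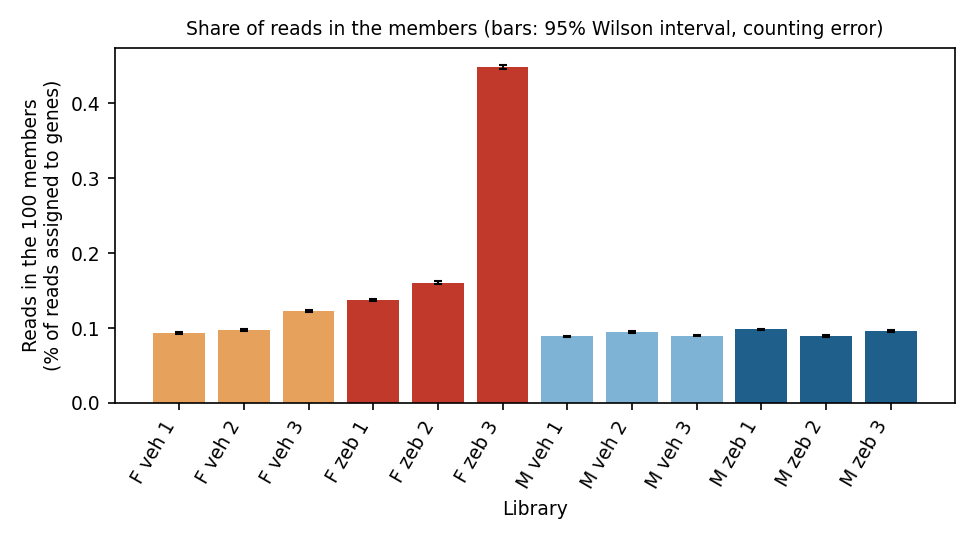
Reads in the 100 members as a percent of the reads assigned to genes in each of 12 libraries, coloured by group; whiskers are 95% Wilson intervals for counting error. Zebularine female 3 stands at 0.449%, the other treated females at 0.137% and 0.161%, vehicle female 3 at 0.123%, and the other 8 libraries lie between 0.0888% and 0.0982%.

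The members varied with each other as well as with the anchor. Over 12 libraries the median r between pairs of members was 0.88, from 0.54 to 0.99. Without zebularine female 3 it was 0.73, and r with the anchor ran from 0.71 to 0.96 with a median of 0.81. Without any zebularine female, over 9 libraries, r with the anchor had a median of 0.58, from -0.25 to 0.96, and was above 0 for 97 members. The median over all tested genes was 0.035 in the same 9 libraries. Over the 6 male libraries alone the members' median r was 0.26, from -0.77 to 0.96, against 0.037 for all tested genes. These libraries are the ones the rule used, and genes of 1 library share its depth and composition.

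After each group's mean was subtracted, r with the anchor was above 0 for all 100 members, with a median of 0.60, from 0.17 to 0.86. The median over all tested genes was 0.065. The members varied with the anchor inside the groups too, where zebularine female 3 and vehicle female 3 were the highest libraries of the anchor in their groups. These deviations are part of the r by which the members were chosen, so the rule partly fixes this. Of the 100 members, 5 were among the top 100 genes by r over these deviations.

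**Figure D5:**
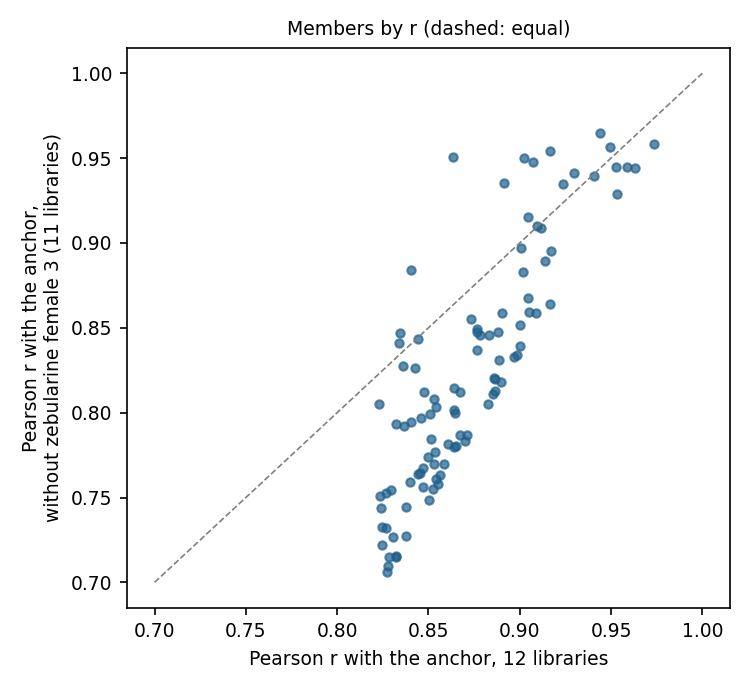
Pearson r of each member with the anchor over 12 libraries (horizontal) and over 11 libraries without zebularine female 3 (vertical); the dashed line marks equal values. Values without that library run from 0.71 to 0.96, and 14 members lie above the line.

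The members were mostly genes of low level. Their median level over the vehicle libraries was 1.27 RPKM, against 8.07 RPKM for all tested genes, and ran from 0.102 to 178 RPKM. Under 1 RPKM lay 39 of the 100, against 12.6% of all tested genes, and at 10 RPKM or more lay 8, against 44.6%. All 100 passed the filter on low values because the rule asks for it. For 7 of them no library outside the zebularine females reached 0.5 RPKM, against 0.0674% of all tested genes. In all, 19 reached it in fewer than 3 of those 9 libraries, against 1.75% of all tested genes. These 19 members thus passed through the group where they were high.

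Gene model length entered the rule only through RPKM, which is divided by it. The length was recovered for all 100 members, with a median of 2218 bases, from 306 to 8415, against 2019 bases for all tested genes. Under 1000 bases lay 13 members, against 25.1% of all tested genes. Zebularine female 3's excess over the other treated females had a median over all tested genes of 0.039 in the shortest of 4 equal length classes and 0.014 in the longest, on the log2 scale. In the members it was 1.03, 0.88, 0.68 and 1.17 from the shortest class to the longest, which held 13, 30, 34 and 23 members. The median member held between 41.0 and 280.0 reads per library, and 19 members had under 10 reads in the shallowest library.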

How the data were processed

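RNA of rat preoptic area was sequenced in 12 libraries, 3 in each of 4 groups that the titles of the samples name. RPKM values per Ensembl gene identifier are what the authors deposited. Per the submitters' processing notes TopHat was used, while the sources used here give no version, read counter, strand setting, genome build or annotation. Genes that overlap or are nearly identical may therefore share reads. In each library a gene's RPKM are whole multiples of 1 step, which gave gene model lengths (whole within 0.02 bases) for 23426 of the 23427 genes above 0, the reads behind each value and the depth per library.

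Levels and folds were set on the log2(RPKM + 0.5) scale, on which changes of low genes come out too small. limma 3.58.1 in R 4.3.3 (eBayes with trend) was fitted to 4 group means over 12 libraries and 16310 genes, two-sided, with Benjamini-Hochberg adjustment and a threshold of 0.05. In simulated reads used to test the fit, the spread beyond counting error was the same for all genes and no library stood apart. Those reads do not show how the fit behaves on these libraries. The rest was computed with Python 3.11.15, pandas 2.3.3, numpy 2.4.6, scipy 1.17.1 and matplotlib 3.10.9.

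The members and lists were chosen with earlier results of these data known. Named genes follow a rule: without symbols, the anchor and the member with the highest r, and the genes on either side of the limit, given here without identifiers. The gene lists could not be matched to identifiers and were not analysed here. Alternatives were pseudocounts of 0.1 and 1, other filters, a block on the replicate number, Spearman's rho, r within groups, and leaving out each library. Counts without each female library in turn were added after seeing the data.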

Additional observations from a re-analysis of the deposited data

Results flagged for a closer look

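In 2 members the treated libraries lay above the vehicle libraries in females and below them in males, without overlap in either. Over all tested genes 31 did so, or 0.19%. The rule set aside genes higher without overlap in both sexes and chose the members for their female levels, which partly fixes such a contrast. The member ranked 24 stood at 1.79, 1.96 and 3.20 RPKM in zebularine females against 1.36, 1.31 and 1.53 RPKM in vehicle females. Its males stood at 1.15, 1.07 and 1.205 RPKM under zebularine against 1.23, 1.31 and 1.215 RPKM under vehicle. The male minus female difference of its log2 changes was -0.63 (limma adjusted p = 0.976 over all genes).

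The member ranked 47 had log2 changes of 1.10 in females and -0.21 in males, a difference of -1.31 (limma adjusted p = 0.976 over all genes). It rested on between 1 and 10 reads in each library outside the zebularine females, so its male levels lie near the floor.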

How the results depend on the processing

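The membership depended on the measure of likeness. Of the 100 members, 38 were also among the top 100 by Spearman's rho and 5 by r over deviations from the group means. Pseudocounts of 0.1 and 1 kept 94 and 96, and a filter of 1 RPKM kept 83. Leaving out each library kept from 63 (without zebularine female 2) to 97, and 71 without zebularine female 3.

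With libraries left out in turn, the median member log2 difference in females lay between 0.44 and 0.99 and that in males between 0.0038 and 0.088. The anchor's lay between 4.80 and 6.12 in females and between 0.091 and 1.02 in males, where it was lowest without zebularine male 1. The number of members at least 2-fold higher in zebularine females, 41, was between 21 (without zebularine female 3) and 49 with a female library left out.

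Over all genes, the count called in females (7) was 4 with a pseudocount of 0.1, 1 with the replicate block, and from 0 to 57 with a library left out, highest without zebularine female 1. The members among them, 1 with all libraries, were 0 in 7 of 17 alternatives (the block and 6 left-out libraries) and 13 without zebularine female 1. The count in males (0) was 2 with a pseudocount of 0.1 and from 0 to 15 with a library left out. The count for the difference between the sexes (0) was 2 with no filter on low values. The causes were not tested. Replicate numbers were not taken as pairs: same-numbered vehicle and zebularine libraries had deviations that correlated at -0.17 to 0.16, and 2 of 12 libraries correlated best with their own number. In the shallowest library 3 reads correspond to 0.0853 RPKM at the members' median length, which limits the lowest members.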
